A study of Mus musculus with 12 samples.

Results

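The genes that make adrenaline were followed in adrenal medullae dissected from 12 male C57Bl6 mice, 3 in each of 4 groups. The genes are 10 in number, out of 19505 genes with a named probe set: the synthesis enzymes Th, Ddc, Dbh and Pnmt, the genes Gch1, Pts, Spr, Qdpr and Pcbd1 that make and recycle the cofactor tetrahydrobiopterin, and Cyb561, which carries electrons to Dbh. They were chosen by name, and each had 1 probe set on the array. Mice were either colonized with a normal gut microbiota or germ-free, and both kinds had the same genetic background. All were fasted for 3 h and injected intraperitoneally with regular human insulin (2 IU/kg) or the same volume of saline, and the medulla was taken 90 min later. Insulin lowers blood glucose, and the design asks how the adrenal response to that fall depends on the gut microbiota. The 4 groups are called colonized saline (animals 1 to 3), colonized insulin (4 to 6), germ-free saline (7 to 9) and germ-free insulin (10 to 12).

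Chromaffin cells of the adrenal medulla make catecholamines from tyrosine. Th, the rate-limiting enzyme, makes DOPA and needs tetrahydrobiopterin. Ddc turns DOPA into dopamine, Dbh turns dopamine into noradrenaline inside the secretory vesicle, and Pnmt turns noradrenaline into adrenaline. A fall in blood glucose is a strong stimulus for adrenaline release through the splanchnic nerve, and nerve activity and glucocorticoids from the surrounding cortex are known to act on these genes.

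The promoters of Th, Dbh, Gch1 and Pcbd1 are printed as examples of the pathway's start (Th), its noradrenaline step (Dbh), the cofactor's start (Gch1) and its recycling (Pcbd1). The sequences are those RefSeq gives for GRCm38.p6, each holding the 250 bases before the annotated start of the gene, 5′ to 3′ on the strand of the gene. Capitals mark the motifs searched on both strands: the cyclic AMP response element core TGACG, the EGR site GCGNGGGCG, the AP-1 site TGANTCA, the NR4A site AAAGGTCA, the CCAAT box and the GC box GGGCGG. Of the 10 genes, 8 matched an entry, and Pnmt and Cyb561 are named only.
Th (chr7:142899996-142900245, minus strand): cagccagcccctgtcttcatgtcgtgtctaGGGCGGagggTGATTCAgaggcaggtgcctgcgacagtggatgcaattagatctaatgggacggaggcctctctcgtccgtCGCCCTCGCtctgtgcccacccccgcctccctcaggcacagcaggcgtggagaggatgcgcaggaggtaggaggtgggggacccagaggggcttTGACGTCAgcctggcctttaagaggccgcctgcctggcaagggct
Dbh (chr2:27165257-27165506, plus strand): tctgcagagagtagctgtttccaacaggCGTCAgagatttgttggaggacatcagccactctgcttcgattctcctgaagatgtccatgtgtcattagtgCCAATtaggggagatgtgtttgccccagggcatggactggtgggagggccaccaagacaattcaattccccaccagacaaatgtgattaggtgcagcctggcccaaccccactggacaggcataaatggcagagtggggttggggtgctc
Gch1 (chr14:47189414-47189663, minus strand): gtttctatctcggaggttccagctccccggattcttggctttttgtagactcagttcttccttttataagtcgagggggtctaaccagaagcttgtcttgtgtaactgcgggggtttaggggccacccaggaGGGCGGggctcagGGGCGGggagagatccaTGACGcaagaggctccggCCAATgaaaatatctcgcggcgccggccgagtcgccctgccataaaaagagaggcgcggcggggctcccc
Pcbd1 (chr10:61089081-61089330, plus strand): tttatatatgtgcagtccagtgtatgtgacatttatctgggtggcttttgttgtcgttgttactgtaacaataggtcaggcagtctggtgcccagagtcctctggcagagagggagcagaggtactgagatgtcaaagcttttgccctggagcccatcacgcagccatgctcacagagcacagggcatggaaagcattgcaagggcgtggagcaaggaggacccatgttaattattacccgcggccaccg

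The Th promoter held the cyclic AMP core on both strands, from 45 to 41 and from 42 to 38 bases before the start, as 2 matches that overlap. It also held an EGR match on the opposite strand 139 to 131 bases before the start and an AP-1 match from 210 to 204. Gch1 held the cyclic AMP core 88 to 84 bases before its start, a CCAAT box at 70 to 66 and a pair of GC boxes. Dbh held the core on the opposite strand at 222 to 218 and a CCAAT box at 150 to 146, and Pcbd1 held none of the 6 motifs. Among all 32851 promoter windows of that length, 17.8% held the cyclic AMP core, 4.7% the EGR site, 6.75% the AP-1 site, 1.34% the NR4A site, 33.8% the CCAAT box and 32.7% the GC box. In the other promoters in the table, Ddc, listed with 2 starts, held an AP-1 and an NR4A match at one start and a CCAAT box at the other. Pts held an EGR match that overlaps a GC box, Spr held GC boxes, and Qdpr held CCAAT boxes and a GC box. A match of letters is a description of the window and was not tested as a site.

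All levels are log2 values of the deposited RMA table. Level differences are taken between arrays for the same probe set, except that ranks and the value of Pnmt minus Th are taken within an array and give no relative RNA amounts. All 10 genes lay on average above 7.71, the 95th percentile of the array's 5222 negative control rows. Th was the brightest of all probe sets in 2 arrays and ranked no lower than 22, and Dbh ranked from 2 to 86. How far the array compresses differences at that brightness was not tested. The chromaffin marker Chga, a vesicle matrix protein, had group means from 12.56 to 13.42, as a label of adrenal medulla asks. Star and Cyp11a1, steroid synthesis genes of the adrenal cortex, had group means from 13.25 to 13.61, so the dissected tissue also held cortex.

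Markers of other tissues differed between the groups and are given here because they move with the comparisons of the catecholamine genes. The mean of 16 chromaffin markers, none of them one of the 10 genes, ran from 9.89 to 10.06 in the colonized saline arrays, 9.78 to 10.28 in the colonized insulin arrays, 9.50 to 9.61 in the germ-free saline arrays and 8.77 to 9.28 in the germ-free insulin arrays. The mean of 9 adipocyte markers ran from 6.71 to 10.46, 6.50 to 8.71, 9.06 to 9.74 and 10.36 to 10.77 in the same order. That of 10 adrenal cortex markers ran from 12.24 to 12.60, 12.59 to 12.65, 12.72 to 12.74 and 12.68 to 12.72. Colonized and germ-free arrays did not overlap in it after saline, nor after insulin. Of these 10 markers 9 were higher in germ-free mice after saline and 6 after insulin. In the colonized insulin group the adipocyte gene Ucp1 had a mean of 4.72, which lies under the negative control limit of 7.71. Among the 16 chromaffin markers, Insm1 lay under that limit in all 12 arrays, and Ddx25 had group means from 4.58 to 5.84. Phox2a and Hand2 lay under it in all 3 germ-free insulin arrays, where Scg3 had a mean of 7.48. Intestinal markers were high in germ-free saline arrays alone (7.56 to 9.37, against at most 5.40 elsewhere), and pituitary markers were highest in germ-free insulin arrays (6.99 to 8.05, against at most 5.85). The mean of 10 liver markers ran from 6.03 to 10.85 in colonized saline and 6.17 to 6.51 in colonized insulin arrays. It ran from 8.72 to 10.25 in germ-free saline and 7.31 to 8.76 in germ-free insulin arrays, so the insulin groups did not overlap in it. In the colonized saline group the liver mean was 10.85 in animal 2 against 6.03 in animal 1, and animal 2 also had the highest adipocyte mean of its group. In bulk tissue, fewer cells of a type and less RNA per cell cannot be told apart.

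**Figure D1:**
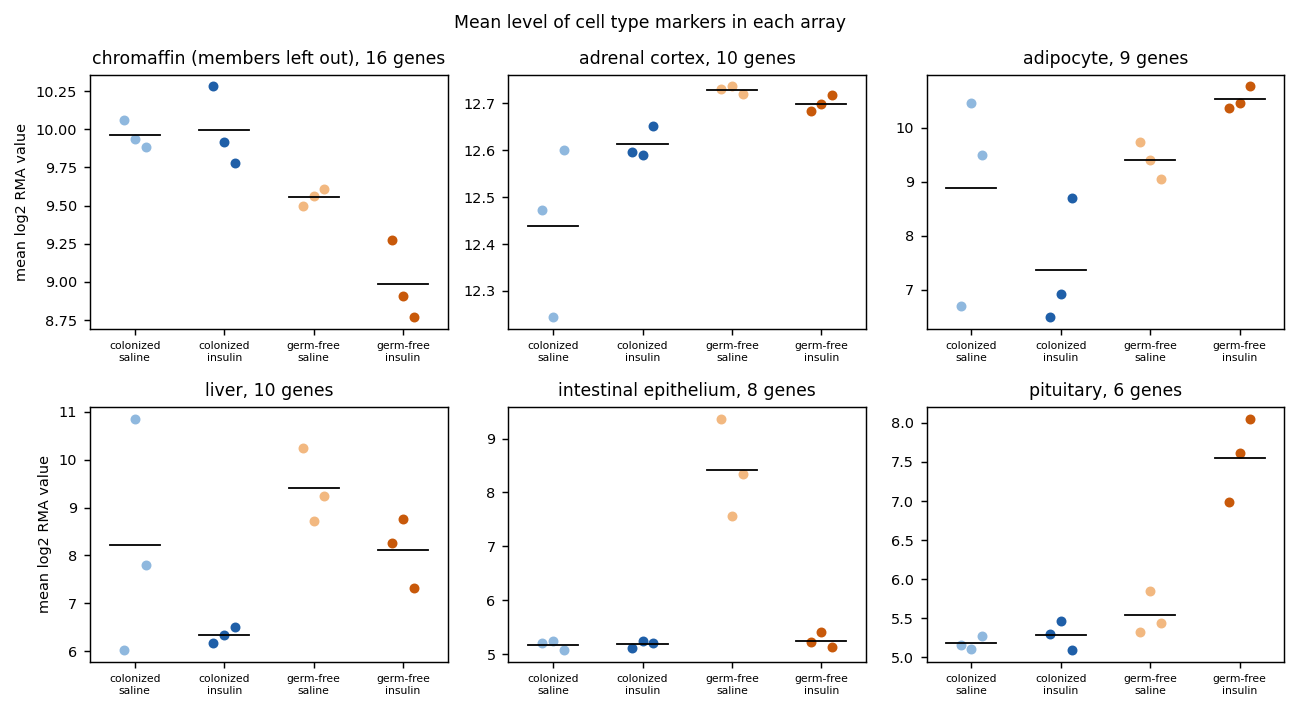
Mean log2 RMA value (y axis) of 6 lists of cell type markers in each array, with groups on the x axis, 1 point per array and a black bar at the group mean. Chromaffin markers are lowest and adipocyte markers highest in the germ-free insulin arrays, while intestinal markers are high in the germ-free saline arrays alone.

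The clearest difference lay between germ-free and colonized mice after insulin: Ddc, Dbh, Pnmt, Qdpr, Pcbd1 and Cyb561 were all lower in germ-free mice, to between 43.0% and 69.8% of the colonized level. That is 6 of 10 genes called lower at a Benjamini-Hochberg adjusted p under 0.05 in limma, where 5.15% of all 19572 probe sets were called lower. For 7 of the 10 every germ-free value lay under every colonized value, against 19.8% of all probe sets. The median difference of the 10 genes was -0.73, against -0.03 over all probe sets, of which 55.4% were below 0. Of all called probe sets 66.3% were lower in germ-free mice, a share that was 75.8% after a second quantile normalization and 48.8% after centring each array on its median.

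**Figure D2:**
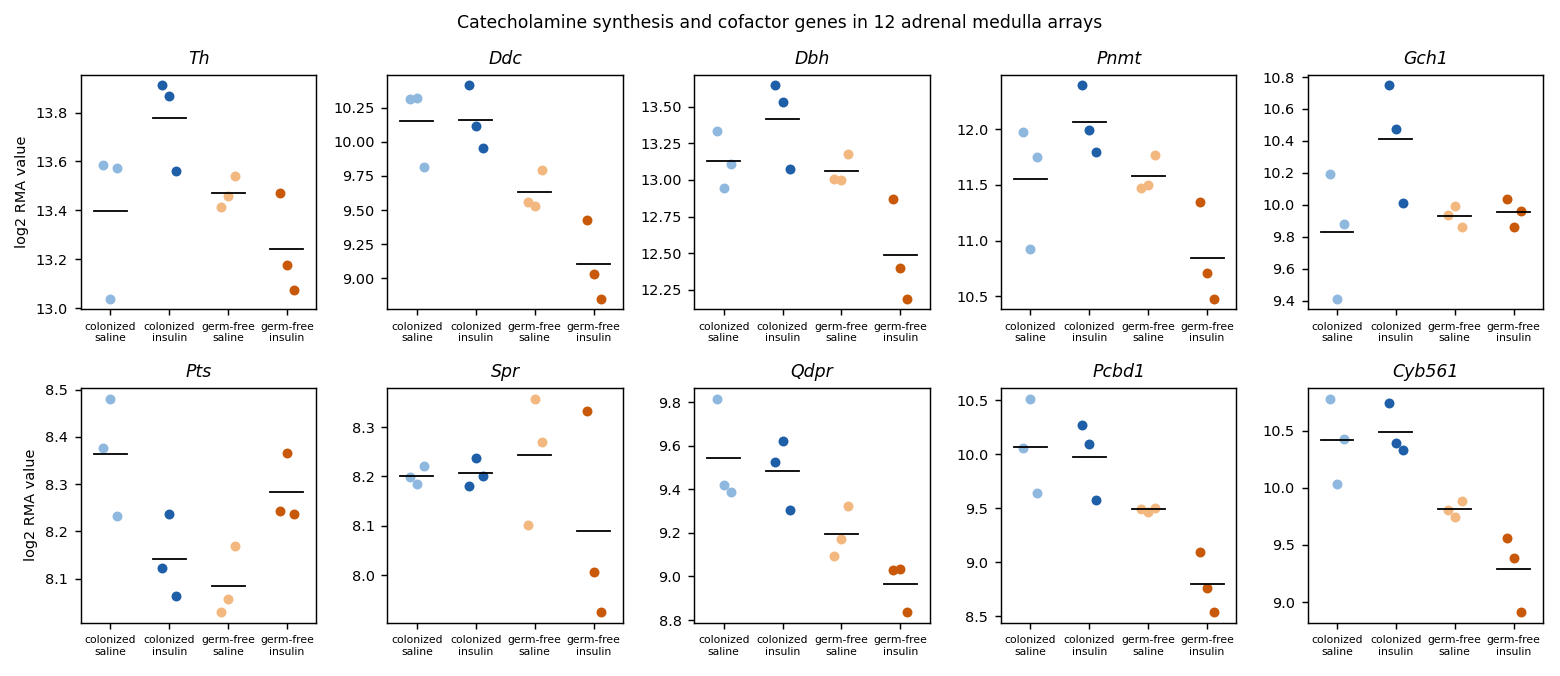
Log2 RMA value (y axis, own scale per gene) of the 10 catecholamine genes in each of 12 arrays, with the 4 groups on the x axis, 1 point per array and a black bar at the group mean. In germ-free insulin arrays Ddc, Dbh, Pnmt, Qdpr, Pcbd1 and Cyb561 lie under every colonized insulin array, while Gch1 and Spr overlap and Pts lies above.

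Among the synthesis enzymes, Ddc, which makes dopamine, read 10.32, 10.32 and 9.82 in the colonized saline mice, 10.42, 10.11 and 9.95 after insulin, 9.56, 9.53 and 9.80 in the germ-free saline mice and 9.42, 9.03 and 8.85 in the germ-free insulin mice. All 6 germ-free arrays lay under all 6 colonized arrays. After insulin the germ-free level differed from the colonized level by -1.06 ± 0.18 (log2, SE, limma adjusted p = 0.00695, n = 3 per group). Dbh, which makes noradrenaline, read 13.34, 12.95 and 13.11 in colonized saline, 13.65, 13.53 and 13.08 in colonized insulin, 13.01, 13.00 and 13.18 in germ-free saline and 12.87, 12.40 and 12.19 in germ-free insulin mice. Only the germ-free insulin group stood apart from the others, and its difference from colonized insulin was -0.93 ± 0.19 (limma adjusted p = 0.013). Pnmt, which makes adrenaline, read 11.97, 10.93 and 11.75 in colonized saline, 12.40, 12.00 and 11.80 in colonized insulin, 11.48, 11.50 and 11.77 in germ-free saline and 11.34, 10.71 and 10.48 in germ-free insulin mice. Animal 2 of the colonized saline group lay as low as the germ-free insulin group, while after insulin the colonized and germ-free values did not overlap. That difference was -1.22 ± 0.27 (limma adjusted p = 0.0202), or 43.0% of the colonized level with a 95% interval of -1.82 to -0.62 on the log2 scale.

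Th, which starts the pathway, was not called in that comparison. Its values were 13.59, 13.04 and 13.57 in colonized saline, 13.91, 13.87 and 13.56 in colonized insulin, 13.41, 13.46 and 13.54 in germ-free saline and 13.47, 13.18 and 13.07 in germ-free insulin mice. After insulin the colonized and germ-free values did not overlap, and the difference of -0.54 ± 0.16 had a limma adjusted p of 0.0642. The call changed with several settings: adjusted p was 0.0323 with dim probe sets left out, 0.049 after a second quantile normalization and 0.0442 in a fit to the 2 compared groups alone. Th was also called without animal 2, at the same difference, and without animal 6, at -0.65.

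Of the genes for tetrahydrobiopterin, the recycling enzymes were lower in germ-free mice after insulin and the synthesis enzymes were not called. Qdpr, which reduces the spent cofactor, read 9.82, 9.42 and 9.39 in colonized saline, 9.53, 9.62 and 9.31 in colonized insulin, 9.09, 9.17 and 9.32 in germ-free saline and 9.03, 9.03 and 8.84 in germ-free insulin mice. The germ-free insulin values lay under all others, and the difference from colonized insulin was -0.52 ± 0.14 (limma adjusted p = 0.0386). Pcbd1, which dehydrates the spent cofactor before Qdpr acts on it, read 10.05, 10.52 and 9.64 in colonized saline, 10.27, 10.09 and 9.58 in colonized insulin, 9.49, 9.47 and 9.51 in germ-free saline and 9.10, 8.76 and 8.54 in germ-free insulin mice. All germ-free arrays lay under all colonized arrays, and the difference after insulin was -1.18 ± 0.22 (limma adjusted p = 0.01). Qdpr ended its call after median centring, where the difference was -0.45 at a limma adjusted p of 0.0771.

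Gch1, the first and rate-limiting enzyme of tetrahydrobiopterin synthesis, read 10.19, 9.41 and 9.88 in colonized saline, 10.75, 10.48 and 10.01 in colonized insulin, 9.94, 9.99 and 9.86 in germ-free saline and 10.04, 9.86 and 9.96 in germ-free insulin mice. The 6 germ-free values lay within the range of the colonized saline group. Its difference after insulin was -0.46 ± 0.20 (limma adjusted p = 0.195), with a 95% interval of -0.90 to -0.02. Pts and Spr, the next enzymes of that synthesis, varied little, over 0.45 and 0.43 log2 units across the 12 arrays. Their differences after insulin were 0.14 ± 0.10 for Pts and -0.12 ± 0.12 for Spr, and limma called neither (adjusted p = 0.461 and 0.62). Pts was the single gene of the 10 whose germ-free values all lay above the colonized ones there.

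Cyb561, the vesicle membrane protein that passes electrons from cytosolic ascorbate to Dbh, read 10.78, 10.03 and 10.43 in colonized saline, 10.74, 10.39 and 10.33 in colonized insulin, 9.81, 9.75 and 9.89 in germ-free saline and 9.56, 9.38 and 8.92 in germ-free insulin mice. Every germ-free array lay under every colonized array and the germ-free insulin arrays were lowest. The difference after insulin was -1.20 ± 0.20, with the smallest limma adjusted p of the 10 genes (0.00599).

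The number called after insulin depended on single arrays of the compared groups. Without animal 4 or animal 12 limma called 2 of the 10 genes, Ddc and Cyb561, and without animal 5 or animal 11 it called 3, with Pcbd1 added. Ddc and Cyb561 were called in 12 of 12 fits that left out 1 array, Pcbd1 in 10, Dbh and Pnmt in 8 and Qdpr in 4. Over those fits Pnmt ranged from -1.47 to -1.04 and Qdpr from -0.61 to -0.45.

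Chromaffin, adipocyte, pituitary and liver markers moved with the same comparison. All 6 pituitary markers were above 0, 5 of them called higher, with a median of 1.71. All 10 liver markers were above 0, 1 of them called higher, with a median of 1.15. All 16 chromaffin markers were below 0 there, 10 of them called lower, with a median difference of -1.08 that lies beyond the median of the 10 catecholamine genes. All 9 adipocyte markers were above 0, 7 of them called higher, with a median of 2.73. Of all probe sets 5.15% were called lower and 2.62% higher in this comparison. With the mean of the chromaffin markers as a covariate, limma called 0 of the 10 genes and 0 of all probe sets (934 had an unadjusted p under 0.05), Cyb561 was at -0.12 and Pcbd1 at -0.07, and Ddc, Dbh and Pnmt changed sign to 0.05, 0.26 and 0.33. With the adipocyte mean as a covariate it called 0 of the 10 and 28 of all probe sets, with Pcbd1 at -1.04, Ddc at -0.77, Cyb561 at -0.62 and Pnmt at -0.43. With the cortex mean as a covariate 7 of the 10 were called lower, Th among them. The pituitary and liver means were not used as covariates. Because the marker means themselves differ between the groups, cell content and level per cell cannot be told apart in these fits.

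**Figure D3:**
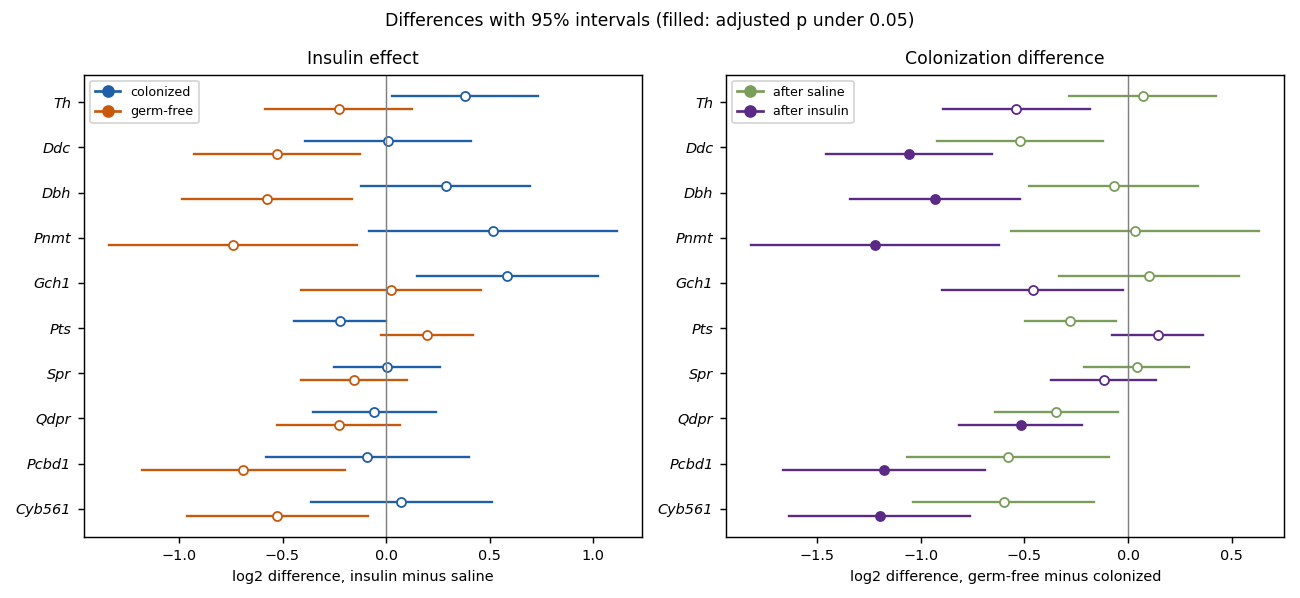
Log2 differences (x axis) of the 10 catecholamine genes with 95% intervals as lines, on the left insulin minus saline in colonized and germ-free mice, on the right germ-free minus colonized in each treatment; filled markers have an adjusted p under 0.05. The filled markers are Ddc, Dbh, Pnmt, Qdpr, Pcbd1 and Cyb561 after insulin, all left of 0, and no insulin effect is filled.

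After saline, limma called 0 of the 10 genes between germ-free and colonized mice, where 6.9% of all probe sets were called in either direction. An unadjusted p under 0.05 was seen for 4702 of all 19572 probe sets and for 5 of the 10 genes. Those 5 were also the genes whose germ-free values all lay under the colonized ones, a pattern that 16.4% of all probe sets had. Their differences were -0.60 ± 0.20 for Cyb561, -0.58 ± 0.22 for Pcbd1, -0.52 ± 0.18 for Ddc, -0.35 ± 0.14 for Qdpr and -0.28 ± 0.10 for Pts, with adjusted p from 0.0944 to 0.146 in limma. Th, Dbh, Pnmt, Gch1 and Spr differed by -0.07 to 0.10, each less than its standard error. For Dbh the 95% interval was -0.48 to 0.34 and for Pnmt -0.56 to 0.63, so differences of that size were not detectable with 3 arrays per group. Cyb561 was called without animal 2 (-0.79) and Ddc without animal 3 (-0.69). Pcbd1 was at -0.36 without animal 2, and Qdpr at -0.21 without animal 1.

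Averaged over both treatments, 5 of the 10 genes were lower in germ-free mice: Cyb561 at -0.90 ± 0.14 (limma adjusted p = 0.00171), Pcbd1 at -0.88 ± 0.16 (0.00352), Ddc at -0.79 ± 0.13 (0.00206), Dbh at -0.50 ± 0.13 (0.0228) and Qdpr at -0.43 ± 0.10 (0.01). The share of all probe sets called lower in this comparison was 11.5%. All 10 genes were below 0, with a median of -0.47, against a median of -0.03 over all probe sets. Pnmt, at -0.59 ± 0.19, was not called at a limma adjusted p of 0.0542, and was called without animal 2 (-0.75) or animal 10 (-0.72). Th was called without animal 2 (-0.32), and Dbh was not called without animal 4, 5, 7, 8, 11 or 12 (-0.49 to -0.43). Limma called 0 of the 10 with the chromaffin covariate, 2 with the adipocyte covariate and 2 with the cortex covariate. The mean of the chromaffin markers moved with this comparison too, and its germ-free saline values all lay under the colonized saline ones. Singly, 7 of the 16 markers had that order after saline, as did 16.4% of all probe sets.

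Insulin changed none of the 10 genes past the threshold in colonized mice. In limma 0 of 10 were called, against 0.153% of all probe sets. An unadjusted p under 0.05 was seen for 2305 of all 19572 probe sets and for 3 of the 10 genes. Those 3 were Gch1 at 0.59 ± 0.20 (adjusted p = 0.307), Th at 0.38 ± 0.16 (0.391) and Pts at -0.22 ± 0.10 (0.422). Pnmt stood at 0.51 ± 0.27 and Dbh at 0.29 ± 0.19, and the other 5 genes lay from -0.09 to 0.07. None of the 10 had all insulin values above all saline values, a pattern of 7.53% of all probe sets. The 95% interval of Pnmt ran from -0.08 to 1.11, so an increase of that size could not be told from no change. Animal 2, the colonized saline array with high liver and adipocyte markers, had the lowest Th, Dbh, Pnmt, Gch1, Spr and Cyb561 of its group. Without it the insulin difference of Th was 0.20, of Pnmt 0.20 and of Gch1 0.38, and limma again called 0 of the 10. Dbh was at 0.17 without animal 4 and 0.46 without animal 6.

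In germ-free mice the insulin mean was below the saline mean for 8 of the 10 genes, and limma called 0 of the 10, against 0.439% of all probe sets. An unadjusted p under 0.05 was seen for 1626 of all 19572 probe sets and for 5 of the 10 genes. Those 5 were Pnmt at -0.74 ± 0.27, Pcbd1 at -0.69 ± 0.22, Dbh at -0.57 ± 0.19, Ddc at -0.53 ± 0.18 and Cyb561 at -0.53 ± 0.20 (adjusted p from 0.346 to 0.472). In these genes and in Qdpr (-0.23 ± 0.14) all insulin arrays lay under all saline arrays, so the count was 6 of 10 where 10.1% of all probe sets had that order. Th stood at -0.23 ± 0.16, Spr at -0.15 ± 0.12 and Gch1 at 0.02 ± 0.20, while all Pts insulin values lay above the saline values (0.20 ± 0.10). With array weights limma called Dbh, Pnmt and Pcbd1 lower in this comparison, and with the cortex covariate or a fit to these groups alone it called Pcbd1. Of the 16 chromaffin markers 14 were below 0 and 3 were called lower here, where 0.296% of all probe sets were called lower. With the mean of the 16 markers as a covariate Ddc, Dbh, Pnmt and Cyb561 lay from 0.09 to 0.14. All 9 adipocyte markers were above 0 here, with 0 called.

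The difference of the insulin effects, germ-free minus colonized, was below 0 for 9 of the 10 genes, and limma called 0 of them, against 0.0358% of all probe sets. It was -1.25 ± 0.39 for Pnmt, -0.86 ± 0.27 for Dbh, -0.61 ± 0.23 for Th and 0.42 ± 0.14 for Pts, each with an unadjusted p under 0.05 and adjusted p from 0.33 to 0.402. Of all 19572 probe sets, 1951 had an unadjusted p under 0.05 in this comparison. Cyb561, Pcbd1, Gch1 and Ddc lay between -0.60 and -0.54, with adjusted p from 0.518 to 0.56. The median over the 10 genes was -0.58. So the larger germ-free minus colonized differences after insulin than after saline were not themselves called for any of the 10 genes. All these comparisons share arrays with each other.

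Pnmt and Th were also set against each other within each array, since the first ends the pathway and the second starts it. Pnmt minus Th was -1.62, -2.11 and -1.82 in colonized saline, -1.52, -1.87 and -1.76 in colonized insulin, -1.94, -1.96 and -1.77 in germ-free saline and -2.13, -2.47 and -2.59 in germ-free insulin mice. The 3 germ-free insulin arrays were the lowest of all 12. Group means were -1.85 ± 0.25, -1.72 ± 0.18, -1.89 ± 0.11 and -2.40 ± 0.24 (SD, n = 3). Averaged over treatments the germ-free minus colonized difference was -0.36, with a two-sided exact permutation p of 0.055 over 400 assignments, of which 0.005 is the smallest p possible. Without animal 2 the difference was -0.42 (exact permutation p = 0.015) and without animal 9 it was -0.39 (exact permutation p = 0.04). Over the other 10 arrays left out in turn it ranged from -0.43 to -0.30, with exact permutation p from 0.06 to 0.115. After a second quantile normalization it was -0.39 (exact permutation p = 0.045). The value describes unequal differences of a pair of probe sets, and compression at the brightness of Th was not tested.

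**Figure D4:**
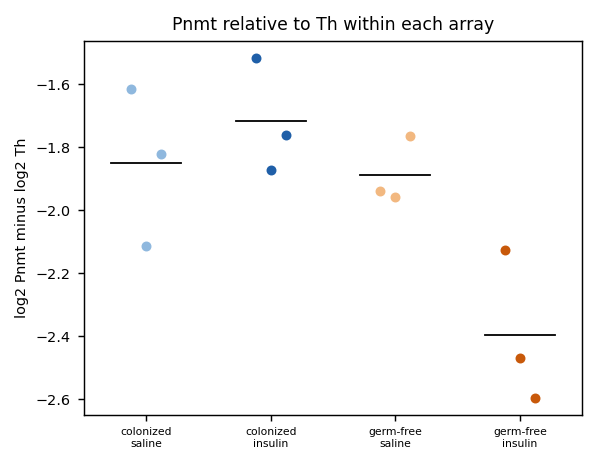
Log2 Pnmt minus log2 Th within each array (y axis), with the 4 groups on the x axis, 1 point per array and a black bar at the group mean. The germ-free insulin arrays lie from -2.59 to -2.13, under all other arrays.

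After insulin most of the genes had the same array lowest in its group. Of the germ-free insulin arrays, animal 12 had the lowest value for 9 of the 10 genes, all but Gch1, and animal 10 the highest for 8. Of the colonized insulin arrays, animal 6 was lowest for 9, all but Spr, and animal 4 highest for 7. The chromaffin marker mean had the same order, with animals 12 and 6 lowest and animals 10 and 4 highest in their groups. After saline the lowest values were divided, in colonized mice between animal 2 (6 genes) and animal 3 (4 genes) and in germ-free mice among animals 7, 8 and 9 (5, 4 and 1). Across all 12 arrays Ddc ran closest to Pcbd1 (Pearson r = 0.97), Cyb561 to Qdpr (r = 0.92), and Th and Dbh to Pnmt (r = 0.94 and 0.95), whereas Pts had r = -0.44 with Th. These are descriptions over 12 arrays that share their group means, tissue content and normalization.

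Among 18535 other genes searched, those most like Pnmt over the 12 arrays were C1ql1 (r = 0.99), Slc7a8 (r = 0.99), an amino acid transporter, and Adcyap1r1 (r = 0.98), the receptor for the splanchnic transmitter PACAP. Th was most like Dlk1 (r = 0.97), Slc7a8 (r = 0.96) and Nucb2 (r = 0.96), and Dbh most like Prrt1 (r = 0.97), Ramp1 (r = 0.97) and Tmem130 (r = 0.97). Ddc was most like Rab3b, Mapk10 and Snap25 (each r = 0.98), of which Snap25 and Rab3b serve vesicle exocytosis. Gch1 had the lowest such values, with Adgra1 (r = 0.96), Med29 (r = 0.92) and Pfkfb4 (r = 0.92).

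Of 66 further genes in 9 lists around the pathway, 54 were measured, and 7 were called lower and 1 higher in germ-free mice after insulin, where 5.15% of all probe sets were called lower and 2.62% higher. The transcription factors made up 4 of the 7. Tfap2b differed by -1.69 ± 0.18 (limma adjusted p = 0.00144), Phox2a by -1.55 ± 0.20 (0.00266), Hand2 by -1.19 ± 0.16 (0.00302) and Gata2 by -1.02 ± 0.18 (0.00756), all regulators of sympathoadrenal cell identity and of Th or Dbh transcription. The same 4 were the list genes called lower after insulin within germ-free mice, where 0.296% of all probe sets were called lower, with Tfap2b at -1.35 ± 0.18 (limma adjusted p = 0.00627), Gata2 at -1.26 ± 0.18 (0.0101), Phox2a at -1.18 ± 0.20 (0.0222) and Hand2 at -0.89 ± 0.16 (0.0369). Tfap2b read 9.09, 8.49 and 8.53 in colonized saline, 9.00, 8.61 and 8.38 in colonized insulin, 8.23, 8.34 and 8.39 in germ-free saline and 7.13, 6.94 and 6.84 in germ-free insulin mice, so the last group stood apart from the rest. In all 3 germ-free insulin arrays Tfap2b, Phox2a and Hand2 lay under the negative control limit of 7.71. Their level there could not be told from the brighter negative controls, so the size of their differences is not exact. After insulin these 4 were called in 12 of 12 fits that left out 1 array, and within germ-free mice Tfap2b was called in 11, Gata2 in 9, Phox2a in 8 and Hand2 in 5. Of the 13 transcription factors measured, 11 were below 0 after insulin, with a median of -0.24. Phox2a, Gata2 and Hand2 are also on the chromaffin marker list, and with the mean of that list as a covariate none of the 4 was called in either comparison, at -0.76 to -0.11. With the adipocyte covariate Tfap2b was called after insulin (-1.09, limma adjusted p = 0.0392), while Phox2a (-1.17), Hand2 (-0.94) and Gata2 (-0.51) were not (adjusted p from 0.114 to 0.315).

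**Figure D5:**
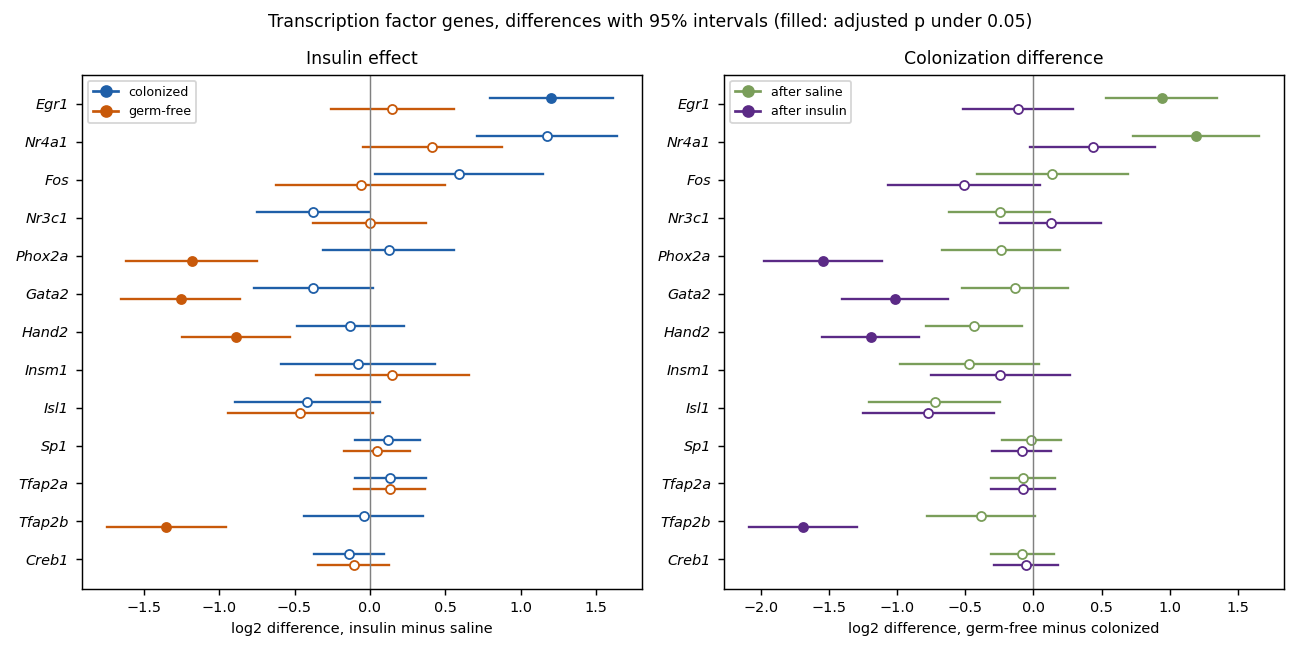
Log2 differences (x axis) of 13 transcription factors of the catecholamine genes, with 95% intervals as lines. The left panel shows insulin minus saline in colonized and germ-free mice, the right panel germ-free minus colonized in each treatment. Filled markers have an adjusted p under 0.05. Tfap2b, Phox2a, Gata2 and Hand2 are filled left of 0 for insulin in germ-free mice and for germ-free minus colonized after insulin. Filled right of 0 are Egr1 for insulin in colonized mice, and Egr1 and Nr4a1 for germ-free minus colonized after saline.

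Egr1 and Nr4a1, immediate early factors that act on Pnmt and Th, had another pattern. Egr1 was higher after insulin in colonized mice by 1.20 ± 0.19 (limma adjusted p = 0.0429), and this was the single list gene called there. It read 9.80, 10.47 and 10.08 in colonized saline, 11.70, 11.22 and 11.05 in colonized insulin, 11.01, 11.19 and 10.98 in germ-free saline and 11.20, 11.08 and 11.34 in germ-free insulin mice. The colonized saline group stood below all the others. The call held in 2 of 12 fits that left out 1 array, at differences of 1.01 to 1.38. It was not called with all rows tested (limma adjusted p = 0.0506), with the cortex covariate (1.44, 0.0766), with the adipocyte covariate (1.29, 0.087) or in a fit to these groups alone (1.20, 0.57). After saline the germ-free level of Egr1 was higher by 0.94 ± 0.19 (limma adjusted p = 0.0136) and that of Nr4a1 by 1.19 ± 0.21 (0.00876), and limma called neither with the cortex covariate, the chromaffin covariate or a fit to these groups alone. Egr1 was then at 1.34, 1.10 and 0.94, and Nr4a1 at 0.60, 1.27 and 1.19. In colonized mice the insulin difference of Nr4a1 was 1.17, at a limma adjusted p of 0.0525.

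Among the genes that supply the enzymes, Slc23a2, the vitamin C transporter that provides the electron donor of Dbh, was higher in germ-free mice after saline. It differed by 1.67 ± 0.17 (limma adjusted p = 0.00048) and was called in 12 of 12 fits that left out 1 array and with each marker covariate, at 1.02 with that for cortex. After insulin the difference was 0.52 ± 0.17, which was not called (limma adjusted p = 0.078). Its values were 10.01, 9.53 and 10.34 in colonized saline, 10.59, 10.77 and 10.76 in colonized insulin, 11.67, 11.62 and 11.62 in germ-free saline and 11.09, 11.26 and 11.33 in germ-free insulin mice, with no overlap between colonized and germ-free arrays. Averaged over both treatments Slc23a2 was at 1.10 ± 0.12 (limma adjusted p = 0.000243), and at 0.67 with the cortex covariate (limma adjusted p = 0.00666). Cyb561, which takes electrons from ascorbate, had the opposite sign. The tissue also held cortex, and which cells gave the Slc23a2 signal was not tested. After insulin, the copper transporter Slc31a1 was lower, at -0.62 ± 0.17 (limma adjusted p = 0.0464) and the amino acid transporter Slc7a8 at -1.16 ± 0.29 (0.0322). The vesicular monoamine transporter Slc18a2 was lower, at -1.14 ± 0.23 (limma adjusted p = 0.0137), one of 6 genes measured for loading, reuptake and breakdown, whose median was -0.53. Agmo, an ether lipid enzyme that uses tetrahydrobiopterin, was the single list gene higher in germ-free mice after insulin, by 1.78 ± 0.36 (limma adjusted p = 0.013). Agmo lay under the negative control limit of 7.71 in all 3 colonized insulin arrays and in 9 of all 12, so the size of that difference is not exact. Slc31a1, Slc7a8, Slc18a2 and Agmo were not called with the adipocyte covariate, at -0.40, -0.31, -0.99 and 0.72, nor with the chromaffin covariate, at 0.063, 0.40, -0.055 and 0.81. Slc18a2 is itself on the chromaffin marker list, so its own level enters that covariate. Slc31a1 was also not called after median centring (-0.55), with the cortex covariate (-0.51) or in a fit to these groups alone (-0.62). Of 12 fits that left out 1 array, Agmo was called in 10, Slc7a8 and Slc18a2 in 8 and Slc31a1 in 3.

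Averaged over both treatments, 13 of the 54 list genes were called lower and 4 higher in germ-free mice, where 11.5% of all probe sets were called lower and 6.14% higher. Beside those named above they included Isl1, a sympathoadrenal transcription factor, at -0.75 ± 0.16 (limma adjusted p = 0.00731) and under 7.71 in 6 of 12 arrays, and Aldh2, which oxidizes catecholamine aldehydes, at -0.41 ± 0.11 (0.03). Of the 7 kinase and 14-3-3 genes that act on Th protein, 3 were lower: Camk2g at -0.40 ± 0.09 (limma adjusted p = 0.00783), Prkaca at -0.29 ± 0.08 (0.026) and Ywhag at -0.23 ± 0.07 (0.047). The tetrahydrobiopterin salvage gene Cbr1 was lower, at -0.24 ± 0.07 (limma adjusted p = 0.0261), as 1 of the 3 measured in its list. Pdxp, a phosphatase of the Ddc cofactor pyridoxal phosphate, was called at -0.40 ± 0.09 (limma adjusted p = 0.0115). But Pdxp lay under the negative control limit of 7.71 in all 12 arrays, so no level above the brighter negative controls stands behind that call. None of the 4 measured methyl donor genes was called in this comparison. Of 12 fits that left out 1 array, Isl1, Camk2g and Pdxp were called in 12, Prkaca in 6, Cbr1 in 5 and Aldh2 and Ywhag in 2. After median centring limma did not call Cbr1 (-0.17), Aldh2 (-0.33), Prkaca (-0.22), Ywhag (-0.16) or Slc31a1 (-0.34). Among the 17 called genes, Phox2a, Gata2, Hand2 and Slc18a2 are themselves on the chromaffin marker list. With the chromaffin covariate, where limma called 1 of all probe sets, none of the 17 was called. Nr4a1 (0.95) and Egr1 (0.69) were then not smaller than without it (0.81 and 0.42), while Slc23a2 was at 0.79, Tfap2b at -0.32 and Isl1 at -0.097.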

How the data were processed

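Expression was measured with Affymetrix arrays, 1 per mouse, in total RNA of dissected adrenal medulla. The authors deposited log2 values, and the submitters' processing notes name RMA and limma, without versions. Joint normalization of the 12 arrays and the build of the annotation are not given in the sources used here. Of 28846 rows, 19572 had 1 gene symbol and 9274 none. One limma fit (version 3.58.1, R 4.3.3) gave each of the 4 groups a mean (12 arrays, 8 residual degrees of freedom, prior 4.08) and 6 contrasts. P-values were adjusted by Benjamini-Hochberg over 19572 probe sets and called under 0.05, and limma gave every adjusted p here. Within groups arrays correlated at 0.954 to 0.993 across probe sets.

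The 10 genes, the lists and the markers were chosen with earlier results of these data known. Text names all 10 genes, the called genes of 9 pathway lists with up to 3 large changes each, and for 5 genes the 3 most correlated. Alternatives were all rows, a dim filter, 1 probe set per gene, 2 rescalings, trend and robust options, array weights, 3 marker covariates, the compared groups alone, a threshold of 0.1 and each array left out. The pipeline was tested on simulated data. The number of arrays limits the precision.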

Additional observations from a re-analysis of the deposited data

How the results depend on the processing

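With 1 choice changed at a time, 721 values of single genes kept their direction and side of the threshold, 96 lost and 22 gained a call, and 28 changed sign. Counted were the 45 of 60 differences of the 10 genes that were larger than their SE, and the list genes already called. The 15 smaller differences were left out, and a list gene already called could not gain a call. With the chromaffin marker mean as a covariate, the number of the 10 genes called fell from 6 to 0 for germ-free minus colonized after insulin and from 5 to 0 for the mean of both treatments. After insulin Th was then at 0.17, Ddc 0.049, Dbh 0.26, Pnmt 0.33, Gch1 0.38, Spr 0.27, Slc31a1 0.063 and Slc7a8 0.40. For the mean of both treatments Th was at 0.26, Dbh 0.33, Pnmt 0.49, Gch1 0.41, Slc31a1 0.065 and Gata2 0.058. For insulin in germ-free mice Th was at 0.18, Ddc 0.10, Dbh 0.10, Pnmt 0.14, Spr 0.067, Qdpr 0.033 and Cyb561 0.088, and for the difference of insulin effects Ddc was at 0.13, Pcbd1 0.066 and Cyb561 0.0505.

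With the adipocyte covariate 0 genes were called after insulin, with Gch1 at 0.20, and 2 for the mean of both treatments, with Th at 0.012 and Gch1 at 0.21. With the cortex covariate 2 were called for the mean of both treatments and 1 for insulin in germ-free mice, and Pcbd1 after saline changed sign to 0.22. For insulin in germ-free mice array weights gave 3 and the compared groups alone 1. For germ-free minus colonized after saline array weights gave 1, as did a threshold of 0.1. Pnmt minus Th passed the threshold after a second quantile normalization (-0.39). Beyond the fits with covariates, the cause was not tested.

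Leaving out each array in turn gave 2 to 7 of the 10 genes after insulin, 4 to 7 for the mean of both treatments, 0 to 1 after saline and 0 in the other comparisons, and Pnmt minus Th from -0.43 to -0.30. Over all probe sets these fits called 451 to 2854 after insulin (1521 with all arrays), 435 to 1938 after saline (1351), 2433 to 4904 for the mean (3454), 1 to 71 for insulin in colonized mice (30), 25 to 201 in germ-free mice (86) and 1 to 83 for the difference (7). Centring moved the lower share of calls from 59.1% to 35.8% after saline and from 65.2% to 42.9% for the mean, and a second quantile normalization to 72.5% and 78.3%. No paired analysis was possible because the groups share no replicate numbers.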

Other observations

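Further marker lists are given by level. The group means of 6 endothelial markers lay between 9.99 and 10.22, and those of 6 macrophage markers between 7.87 and 8.11. The 7 Schwann and sustentacular cell markers, of cells that surround chromaffin cells, had a mean of 6.67 after saline and 6.26 after insulin in colonized mice, and of 5.95 and 6.09 in germ-free mice. In germ-free minus colonized after saline all 7 were below 0, with a median of -0.73. Limma called 2 of them lower there, and 799 of all 19572 probe sets. For the mean of both treatments it called 3 of the 7 lower, where 11.5% of all probe sets were called lower. Each group mean of this list lay under the negative control limit of 7.71. The 5 fibroblast markers ranged from 7.97 to 10.22 among the colonized saline arrays and from 8.13 to 8.55 among the germ-free saline arrays, and the 4 group means lay between 8.15 and 8.94. The single measured blood cell marker had group means of 6.99 to 7.33.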
